A study of Mus musculus with 9 samples.

Results

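The genes described here encode the factors that travel with RNA polymerase II after it leaves the promoter, together with SPT6 itself and the histone chaperones that work beside it. They were chosen by name as a list of 39 mouse genes, all of which were found among the 17943 genes of the count table and all of which passed the filter on low counts. RNA sequencing was performed on whole skin of 5 control and 4 *Supt6*-KO mice, which was collected on day 10 counted from the last injection. *Supt6*-KO mice carried floxed *Supt6* alleles and a tamoxifen-inducible Cre recombinase under the keratin 14 promoter (K14-CreERT; *Supt6* fl/fl) and received tamoxifen. Control mice are given as wild type in the sample labels and, in the study's methods, as *Supt6* fl/fl animals given corn oil alone, so the Cre transgene and tamoxifen differed between the groups along with *Supt6* and cannot be told apart from its loss. The labels name the ear as the tissue, whereas the methods name dorsal skin. Cartilage genes, led by *Acan*, summed to between 220 and 599 CPM (counts scaled to a common library size) in the control mice. In *Supt6*-KO mice 1 to 4 they summed to 30.4, 35.8, 32.9 and 32.0 CPM. Whether this reflects the tissue taken was not tested. The age of the mice is not in the labels. Keratin 14 marks the basal layer of the epidermis, so recombination was directed at keratinocytes, while fibroblasts, endothelial cells, muscle and immune cells of the same sample kept their *Supt6* alleles.

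RNA polymerase II pauses shortly after initiation, held by NELF and DSIF. P-TEFb, a kinase made of CDK9 and a T-type cyclin, releases it by phosphorylating DSIF, NELF and the polymerase tail. P-TEFb is kept inactive in the 7SK particle by HEXIM1 and LARP7 and is delivered to genes by the super elongation complex. In the gene body SPT6, its partner IWS1, DSIF, the PAF1 complex, FACT and TFIIS move with the polymerase, and the chaperones among them take histones off ahead of it and put them back behind it. In the epidermis, basal keratinocytes divide and turn on differentiation genes as they move outward.

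*Supt6* is shown first because it is the deleted gene. Its transcript in the reference annotation (GENCODE M21, mm10) lies on the minus strand at chr11:78206746-78245987 and has 6488 bases in 37 exons. By the order of exons in that transcript, the floxed exons 12 to 19 hold 1138 of those bases, or 17.5%, at chr11:78224366-78227039. The primers with which *Supt6* message was measured in the study mark the junction where the deleted part begins. Capitals show bases that lie in the floxed exons.
*Supt6* forward primer, exons 11 to 12: acatggagagGCTCAAAGAT
*Supt6* reverse primer, exons 12 to 13: TCACCTTCACCTTCTTCATC
The forward primer ends 10 bases into exon 12, the reverse primer lies wholly within the floxed part, and their product spans 169 bases of the transcript. A count over the whole gene, which is the quantity given here, also takes in reads from the exons on either side of the deletion.

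Promoters are shown for both subunits of DSIF, whose messages moved in opposite directions, and for the *Asf1* paralogs, which encode chaperones of histones H3 and H4. Each run is the 250 bases before the start that the RefSeq promoter table uses (GRCm38.p6), read 5′ to 3′ on the gene's strand, with motif matches on either strand in capitals. For *Supt5*, on the minus strand, that start lies inside the annotated span of the gene, and 85 bases of the run overlap the span. The motifs searched were the CCAAT box, spelled as it is named, an ETS motif and an E2F motif. The ETS motif was searched with the letters CCGGAAG. For the E2F motif the letters were TTTNNCGC. No motif contains another.
*Supt4a* promoter, chr11:87737301-87737550, plus strand: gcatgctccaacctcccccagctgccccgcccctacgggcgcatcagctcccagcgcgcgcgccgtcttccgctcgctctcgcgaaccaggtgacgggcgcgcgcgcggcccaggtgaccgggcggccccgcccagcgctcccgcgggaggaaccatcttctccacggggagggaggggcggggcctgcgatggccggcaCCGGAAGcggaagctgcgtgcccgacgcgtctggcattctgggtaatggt
*Supt5* promoter, chr7:28338720-28338969, minus strand: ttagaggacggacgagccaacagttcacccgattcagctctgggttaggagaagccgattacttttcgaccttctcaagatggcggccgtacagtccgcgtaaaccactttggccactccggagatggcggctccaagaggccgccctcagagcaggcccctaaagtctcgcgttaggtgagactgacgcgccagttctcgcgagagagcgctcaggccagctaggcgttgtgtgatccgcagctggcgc
*Asf1a* promoter, chr10:53596711-53596960, plus strand: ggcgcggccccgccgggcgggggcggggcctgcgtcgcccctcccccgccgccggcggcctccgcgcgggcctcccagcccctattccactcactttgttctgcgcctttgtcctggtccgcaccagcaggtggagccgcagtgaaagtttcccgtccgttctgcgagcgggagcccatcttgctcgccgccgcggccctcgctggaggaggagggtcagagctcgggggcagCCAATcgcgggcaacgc
*Asf1b* promoter, chr8:83955444-83955693, plus strand: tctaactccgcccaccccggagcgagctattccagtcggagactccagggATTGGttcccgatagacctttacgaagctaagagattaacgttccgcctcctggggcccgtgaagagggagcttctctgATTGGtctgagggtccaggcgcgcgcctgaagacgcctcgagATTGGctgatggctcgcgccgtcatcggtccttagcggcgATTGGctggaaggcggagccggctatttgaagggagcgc
The *Supt4a* run holds 1 match to the ETS motif and 34 CG dinucleotides, and the *Supt5* run holds no match to the 3 motifs and 22 CG dinucleotides. *Asf1a* has 1 CCAAT box and *Asf1b* has 4, all 4 on the opposite strand, so that the reverse complement of the box is seen. A promoter was at hand for 32 of the 39 genes. The ETS motif was present in 10 of these 32 (31.2%), against 7.83% of 27025 genes, the CCAAT box in 15 (46.9%) against 37.5%, and the E2F motif in 3 (9.38%) against 4.94%. Of the 10 genes with the ETS motif, *Supt4a*, *Eaf1*, *Eaf2* and *Cdk9* had higher message in *Supt6*-KO skin, *Mllt1*, *Rtf1*, *Cdk13* and *Supt16* had lower message, and *Ccnt1* and *Hira* did not pass the test. On library totals alone *Eaf1*, *Eaf2* and *Cdk9* did not pass, and *Ccnt1* and *Hira* were lower. With the length trend removed *Cdk9* and *Supt16* did not pass, and *Cdk13*, *Ccnt1* and *Hira* were higher. The 27025 genes also take in genes not tested here, whereas all 39 passed the filter on low counts. No share was computed for tested genes alone, so the contrasts are not a trait of elongation factors in particular. These matches are a description of the letters in these windows.

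The libraries held 29627341 to 30491197 estimated counts in control and 30597189 to 30967107 in *Supt6*-KO mice. Levels are CPM scaled by TMM factors, and differences are log2 fold changes of *Supt6*-KO over control with their standard error (SE), tested with edgeR's quasi-likelihood test and Benjamini-Hochberg adjustment over 16426 genes. A gene passed at an adjusted p under 0.05. The TMM factors lay between 1.198 and 1.315 in control and between 0.6738 and 0.9098 in *Supt6*-KO mice, so calls can move with the scaling. *Supt6*-KO mouse 4 stood apart from the other *Supt6*-KO mice. Basal keratinocyte markers, of which *Krt5* was the most abundant in control and *Krt14* in *Supt6*-KO skin, summed to between 11600 and 13300 CPM in the control mice, to 8400, 5800 and 7010 CPM in *Supt6*-KO mice 1 to 3, and to 14100 CPM in mouse 4. Suprabasal markers, led by *Krt10*, summed to between 20400 and 22200 CPM in control, to 44100, 43000 and 41500 CPM in *Supt6*-KO mice 1 to 3 and to 21500 CPM in mouse 4. Genes of proliferating cells, led by *Pcna*, summed to between 250 and 315 CPM in control, to 396, 368 and 499 CPM in *Supt6*-KO mice 1 to 3 and to 1180 CPM in mouse 4. Several values below are therefore also given without this mouse. The keratinocyte sums do not speak for each of their genes. *Krt5*, *Krt15*, *Trp63*, *Itga6*, *Itgb4* and *Col17a1* were lower in every *Supt6*-KO mouse, mouse 4 included, than in any control mouse, and *Krt14* overlapped. *Krt1*, *Krtdap* and *Dsc1* were higher in every *Supt6*-KO mouse, *Sbsn* was lower in every one, and *Krt10* and *Dsg1a* overlapped.

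Message of marker genes for several cell types also differed between the groups, where 34.1% of all genes tested were higher and 36.8% lower. Of the marker lists, basal keratinocyte genes had 6 of 7 lower, hair follicle genes 6 of 6 lower, skeletal muscle genes 5 of 6 lower, fibroblast genes 4 of 7 lower, endothelial genes 4 of 5 lower, adipocyte genes 4 of 5 lower, and cartilage genes 4 of 4 tested lower. Suprabasal genes had 3 of 6 higher, melanocyte genes 5 of 5 higher, proliferating-cell genes 5 of 8 higher, macrophage genes 5 of 6 higher and 1 lower, neutrophil genes 4 of 5 tested higher and 1 lower, and T cell genes 1 of 6 higher and 3 lower. Summed muscle markers, led by *Acta1* in control, were at 3760 ± 511 CPM (SD, n = 5) in control and 957 ± 203 CPM (SD, n = 4) in *Supt6*-KO skin. Summed hair follicle markers, led by *Krt71* in control, were at 1420, 130, 489, 290 and 9.88 CPM in control mice 1 to 5 and at 2.93 ± 0.424 CPM in *Supt6*-KO skin (SD, n = 4). Control mouse 1 carried much of the control mean of 467 CPM, which was 230 CPM without it, and control mouse 5 lay nearest to the *Supt6*-KO mice. *Krt25* and *Krt31* were at no more than 3 counts in any *Supt6*-KO mouse. Summed adipocyte markers were at 311 ± 71.3 CPM (SD, n = 5) in control and 317 ± 61.7 CPM (SD, n = 4) in *Supt6*-KO skin. *Fabp4*, the most abundant of them, did not pass (log2 fold change 0.46, adjusted p = 0.0721, edgeR). Summed neutrophil markers went from 7.07 ± 1.90 to 42.7 ± 23.3 CPM and did not exceed 76.7 CPM in any mouse, and *Elane* had at most 1 count. In whole skin, fewer cells of a type and less message per cell cannot be told apart, and the part of cell makeup in the changes given here was not tested. Y-linked *Ddx3y* had 2009 to 3071 counts in all 4 *Supt6*-KO and 3 control mice, and at most 3 counts in control mice 1 and 3, so the groups also differed in sex.

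Expression of the elongation factors was shifted in both directions. Of the 39 genes, 12 were higher (30.8%) and 14 lower (35.9%) in *Supt6*-KO skin, and 13 did not pass the test, so that 26 passed in either direction (66.7%). Across all 16426 genes, 34.1% were higher, 36.8% lower and 71.0% either, so the shares for elongation factors lay near the background. At least 2-fold higher were 8 (20.5%) against a background of 20.9%, and at least 2-fold lower were 7 (17.9%) against 24.9%. All *Supt6*-KO mice lay above all control mice for 11 genes (28.2%, background 28.9%) and below them for 12 (30.8%, background 31.8%). The median log2 fold change was −0.07 for the elongation factors and −0.07 for all genes, and the median size of the change was 0.60 and 0.96. What follows is therefore an account of which subunits moved and how far, complex by complex. Without *Supt6*-KO mouse 4, 12 were higher and 17 lower, and the number at least 2-fold higher went from 8 to 5. With CPM on library totals alone, which moves the median of all genes to −0.76, 5 were higher and 25 lower. Against the 3 control mice with Y-linked counts alone, 10 were higher and 12 lower, with *Cdc73*, *Nelfe*, *Ell3* and *Hexim1* no longer past the threshold (adjusted p between 0.0582 and 0.113, edgeR).

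**Figure D1:**
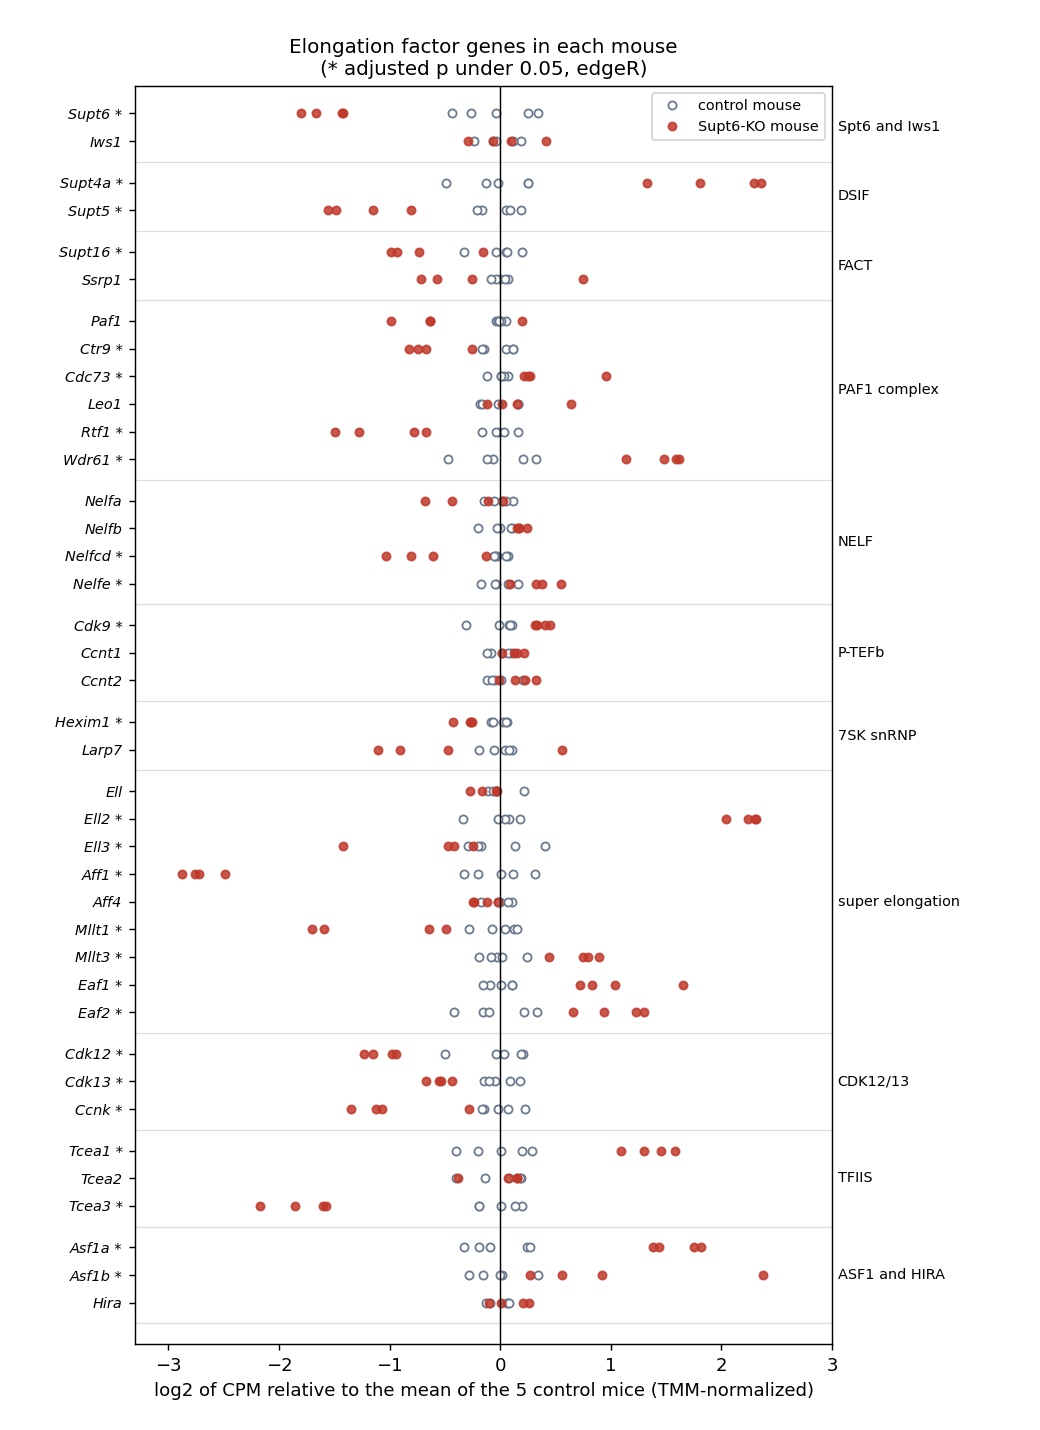
Level of each elongation factor gene in each mouse as log2 of CPM over the mean of the 5 control mice (x axis), by gene and complex (y axis); open grey points are control and red points *Supt6*-KO mice, and asterisks mark an adjusted p under 0.05 (edgeR). All *Ell2* and *Supt4a* points of *Supt6*-KO mice lie to the right of the control points, as do the *Asf1b* points of *Supt6*-KO mice 1, 3 and 4, with mouse 4 farthest at 44.8 CPM, *Aff1* lies farthest to the left, and within DSIF, TFIIS and the super elongation complex the genes go opposite ways.

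*Supt6* message was at 74.5, 56.6, 63.6, 91.1 and 96.7 CPM in the 5 control mice and at 28.6, 24.1, 21.9 and 28.4 CPM in the 4 *Supt6*-KO mice. Every *Supt6*-KO mouse lay below every control mouse, and mouse 4 was among the higher *Supt6*-KO mice. The control mean was 76.5 ± 17.2 CPM (SD, n = 5) and the *Supt6*-KO mean 25.7 ± 3.31 CPM (SD, n = 4), 33.7% of control (log2 fold change −1.57, SE 0.18, adjusted p = 1.29e-05, edgeR; two-sided exact permutation test of log2 CPM, p = 0.0159, the smallest value that 5 against 4 mice allow). The direction and the call held in all 18 alternative settings, with log2 fold changes between −2.26 and −0.78. *Supt6* shares 242 annotated exon bases with *Sdf2* on the opposite strand, and *Sdf2* went up by 1.60 on the log2 scale. Whether reads were counted by strand is not given in the sources used here.

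*Iws1*, which encodes the partner that binds the SPT6 core and links it to RNA processing and export, was at 29.9, 26.5, 35.5, 30.5 and 33.8 CPM in control and at 33.4, 29.9, 25.5 and 41.5 CPM in *Supt6*-KO mice. The groups overlapped, and the difference of 0.06 (SE 0.15, adjusted p = 0.728, edgeR) did not pass. *Iws1* was lower on library totals alone (−0.61, adjusted p = 0.0226, edgeR) and higher with the length trend removed (1.08, adjusted p = 4.21e-05, edgeR). The ratio of *Supt6* to *Iws1* counts within a mouse does not depend on how a library is scaled. It went from 2.41 in control to 0.798 in *Supt6*-KO skin (geometric means), a 3.02-fold shift without overlap (exact permutation test, p = 0.0159, adjusted over the 17 gene pairs compared, 0.0245).

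DSIF is a dimer of SPT5 and SPT4, and its subunits moved in opposite directions. *Supt5*, the large subunit that contacts the polymerase clamp, was at 90.4, 78.0, 75.6, 99.9 and 93.2 CPM in control and at 39.5, 29.7, 31.3 and 49.9 CPM in *Supt6*-KO mice. It fell to 43.0% of control (log2 fold change −1.22, SE 0.17, adjusted p = 5.53e-05, edgeR), without overlap. *Supt4a*, the small zinc-finger subunit, was at 43.8, 52.8, 52.8, 40.5 and 31.6 CPM in control and at 155, 218, 227 and 111 CPM in *Supt6*-KO mice. It rose to 401% of control (log2 fold change 2.00, SE 0.22, adjusted p = 1.22e-05, edgeR), and *Supt6*-KO mouse 4 was the nearest to control for both genes. The *Supt5* to *Supt4a* ratio within a mouse went from 2.00 to 0.216, a 9.26-fold shift, or −3.21 on the log2 scale (exact permutation test, p = 0.0159, adjusted 0.0245). A related gene, *Supt4b*, had at most 2 counts, after rounding, in any mouse. The *Supt5* and *Supt4a* transcripts differ in length, 3755 bases for *Supt5* and 706 for *Supt4a*. With the trend of expression on length removed from every library, *Supt4a* was still higher by 0.75 and *Supt5* still lower by 0.90 on the log2 scale, and both remained past the threshold (adjusted p = 0.000146 and 0.00019, edgeR), but the shift between them was then −1.65.

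FACT removes and replaces H2A-H2B dimers as the polymerase passes. *Supt16*, its SPT16 subunit, was at 61.7, 57.9, 47.5, 68.3 and 62.1 CPM in control and at 35.7, 30.1, 31.2 and 53.5 CPM in *Supt6*-KO mice. It fell to 63.2% (log2 fold change −0.66, SE 0.18, adjusted p = 0.00604, edgeR), although mouse 4 lay within the control range. The call was lost with the length trend removed (log2 fold change −0.15, adjusted p = 0.406, edgeR). *Supt16* shares 926 annotated exon bases with *Rpgrip1* on the opposite strand, which averaged 16 counts in control and 9 in *Supt6*-KO mice. *Ssrp1*, the other subunit, was at 125, 122, 118, 131 and 129 CPM in control and at 105, 76.1, 84.1 and 210 CPM in *Supt6*-KO mice. *Supt6*-KO mice 1 to 3 were below all control mice and mouse 4 was above them all, and the difference of −0.07 (adjusted p = 0.809, edgeR) did not pass. Without mouse 4, *Ssrp1* was lower by 0.51 on the log2 scale (adjusted p = 0.00195, edgeR). Within each mouse, the *Supt16* to *Ssrp1* ratio went from 0.473 to 0.336, without overlap (exact permutation test, p = 0.0159, adjusted 0.0245), a log2 shift of −0.49 that was −0.12 with the length trend removed.

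The PAF1 complex rides on the polymerase, couples elongation to histone H2B ubiquitylation and helps SPT6 engage the elongating complex. Of its 6 genes, 2 were higher, 2 lower and 2 did not pass. *Wdr61*, a WD-repeat subunit that also belongs to the SKI complex of RNA decay, was at 113, 148, 137, 109 and 85.3 CPM in control and at 356, 363, 331 and 260 CPM in *Supt6*-KO mice. It rose to 276% of control without overlap (log2 fold change 1.47, SE 0.17, adjusted p = 1.88e-05, edgeR). On library totals alone *Wdr61* was higher by 0.76 (adjusted p = 0.000714, edgeR). *Rtf1*, which carries the domain that promotes H2B ubiquitylation, was at 58.8 ± 4.77 CPM (SD, n = 5) in control and fell to 29.1 ± 7.74 CPM (SD, n = 4), 49.4% of it (log2 fold change −1.01, SE 0.17, adjusted p = 0.000232, edgeR). *Ctr9*, the scaffold subunit, fell to 65.8% without overlap (log2 fold change −0.60, adjusted p = 0.0022, edgeR), but lost the call with the length trend removed (adjusted p = 0.248). *Cdc73*, the tumour suppressor parafibromin, rose to 137% without overlap (log2 fold change 0.46, adjusted p = 0.0197, edgeR), with *Supt6*-KO mouse 4 at 76.8 CPM and the other 3 between 45.9 and 47.7 CPM. Without mouse 4 the difference was 0.24 (adjusted p = 0.0211), and on library totals alone its sign turned, to −0.20 (adjusted p = 0.423). With the replicate number as a block *Cdc73* did not pass (0.39, adjusted p = 0.054, edgeR). *Paf1*, the founding subunit, was at 51.7, 48.7, 49.3, 50.2 and 49.4 CPM in control and at 32.1, 25.1, 32.2 and 57.2 CPM in *Supt6*-KO mice. As for *Ssrp1*, mouse 4 lay above every control mouse and the other *Supt6*-KO mice below. *Paf1* did not pass in the edgeR fit of all mice with TMM (log2 fold change −0.44, adjusted p = 0.066), and was lower by 0.75 without mouse 4 (adjusted p = 5.24e-05). With all mice it passed as lower on library totals alone and with the length trend removed (−1.09 and −0.67, adjusted p = 0.00376 and 0.0137, edgeR). It also passed as lower with upper-quartile factors, with at least 10 counts in every mouse and with the replicate block (adjusted p = 0.0274, 0.0399 and 0.041, edgeR). *Leo1* did not pass (log2 fold change 0.20, adjusted p = 0.281).

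NELF holds the paused polymerase. *Nelfcd* fell from 24.2 to 15.9 CPM without overlap (log2 fold change −0.60, SE 0.17, adjusted p = 0.00749, edgeR). *Nelfe*, the subunit with an RNA-binding domain, rose from 31.1 to 39.6 CPM with overlap (log2 fold change 0.35, SE 0.12, adjusted p = 0.0216), but its sign turned on library totals alone (−0.33) and with the length trend removed (−0.09). With the replicate number as a block *Nelfe* did not pass (0.30, adjusted p = 0.0616, edgeR). *Nelfa* and *Nelfb* did not pass (log2 fold changes −0.27 and 0.19, adjusted p = 0.127 and 0.113, edgeR). All 4 *Supt6*-KO mice lay above all control mice for *Nelfb*, between 68.2 and 72.3 CPM against 53.4 to 66.0 CPM. *Nelfa* was lower without mouse 4 (−0.39, adjusted p = 0.0218). *Nelfa* shares 51 annotated exon bases with *Nsd2* and *Nelfcd* 10 with *Ctsz*, on opposite strands.

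Of the 3 P-TEFb genes, 1 passed. *Cdk9*, its kinase, was at 58.4, 62.1, 63.1, 62.4 and 47.3 CPM in control and at 80.3, 72.9, 73.9 and 77.6 CPM in *Supt6*-KO mice, and rose to 130% without overlap (log2 fold change 0.38, SE 0.11, adjusted p = 0.00987, edgeR), though on library totals alone its sign turned (−0.31, adjusted p = 0.0631) and with the length trend removed it was at 0.01 (adjusted p = 0.918). The cyclins *Ccnt1* and *Ccnt2* did not pass (0.13 and 0.17, adjusted p = 0.26 and 0.228, edgeR). Both cyclins were lower on library totals alone (−0.57 and −0.52, adjusted p = 0.00252 and 0.0129, edgeR). With the length trend removed both were higher (0.98 and 0.96, adjusted p = 8e-06 and 7.31e-05, edgeR). Their ratio within a mouse was 2.01 in control and 1.95 in *Supt6*-KO skin (exact permutation test, p = 0.603). *Hexim1*, which holds P-TEFb inactive in the 7SK particle, was at 66.2, 67.8, 61.1, 67.3 and 61.9 CPM in control and at 53.8, 48.3, 54.0 and 54.3 CPM in *Supt6*-KO mice, and fell to 81.1% without overlap (log2 fold change −0.30, SE 0.09, adjusted p = 0.0133, edgeR), with no call once the length trend was removed (−0.05, adjusted p = 0.642). The ratio of *Cdk9* to *Hexim1* within a mouse went from 0.901 to 1.45, a 1.61-fold shift without overlap (exact permutation test, p = 0.0159, adjusted 0.0245). With the length trend removed, on transcript lengths of 1733 and 3495 bases, the log2 shift went from 0.69 to 0.06. Those lengths are in doubt, as given with the length trend below. *Larp7*, which binds the end of 7SK RNA, was at 20.4, 18.3, 16.6, 19.6 and 20 CPM in control and at 13.7, 8.83, 10.1 and 28.0 CPM in *Supt6*-KO mice. It did not pass (−0.32, adjusted p = 0.335, edgeR), and without mouse 4 it was lower by 0.81 (adjusted p = 0.000643).

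The super elongation complex is assembled on an AFF scaffold from an ELL protein, an EAF protein, and ENL (*Mllt1*) or AF9 (*Mllt3*), which read acetylated histones. It held the largest changes in both directions, and most of its paralog pairs moved apart. *Aff1* was at 94.3, 74.7, 81.5, 117 and 102 CPM in control and at 16.7, 14.2, 13.9 and 12.8 CPM in *Supt6*-KO mice. *Aff1* fell to 15.3% of control (log2 fold change −2.71, SE 0.16, adjusted p = 2.56e-07, edgeR). This was farther than *Supt6* itself and farther than any other of the 39 genes, although with the length trend removed *Tcea3* fell farther. The other scaffold gene, *Aff4*, was at 125 ± 8.68 CPM (SD, n = 5) in control and 112 ± 8.75 CPM (SD, n = 4) in *Supt6*-KO skin and did not pass (log2 fold change −0.16, adjusted p = 0.209). The *Aff1* to *Aff4* ratio within a mouse went from 0.743 to 0.128, a 5.81-fold shift (exact permutation test, p = 0.0159, adjusted 0.0245). The transcripts are of similar length, 8323 and 10099 bases. With the length trend removed, *Aff1* was lower by 1.76 and *Aff4* higher by 0.90 on the log2 scale (adjusted p = 8.68e-07 and 2.08e-05, edgeR).

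Among the ELL genes, which raise the catalytic rate of the polymerase, *Ell2* was at 48.8, 52.4, 47.8, 45.8 and 36.8 CPM in control and at 191, 230, 228 and 219 CPM in *Supt6*-KO mice. It rose to 468% of control, the largest increase of the 39 (log2 fold change 2.23, SE 0.13, adjusted p = 2.18e-07, edgeR), and mouse 4 was like the other *Supt6*-KO mice. *Ell* was at 23.4 ± 2.17 CPM (SD, n = 5) and 21.5 ± 1.74 CPM (SD, n = 4) and did not pass (−0.12, adjusted p = 0.36). *Ell3* was lower (−0.57, SE 0.23, adjusted p = 0.0436, edgeR) with overlapping groups, and *Supt6*-KO mouse 4 was the lowest, at 10.5 CPM against 20.3 to 23.7 CPM. That call was lost when control mouse 2, 3 or 4 or *Supt6*-KO mouse 1, 3 or 4 was left out, with log2 fold changes between −0.630 and −0.372, and with DESeq2 (−0.51, adjusted p = 0.0574). The *Ell2* to *Ell3* ratio within a mouse went from 1.66 to 12 and the *Ell* to *Ell2* ratio from 0.506 to 0.099, both without overlap (exact permutation tests, p = 0.0159, adjusted 0.0245). The *Ell* to *Ell3* ratio did not pass (0.842 and 1.18, exact permutation test, p = 0.143, adjusted 0.173).

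*Mllt1* and *Mllt3*, which compete for the same place on the scaffold, also moved apart. *Mllt1* fell from 41.9 ± 4.94 to 20.9 ± 8.75 CPM, 49.8% of control, without overlap (log2 fold change −1.004, SE 0.25, adjusted p = 0.00329, edgeR). *Supt6*-KO mice 2 and 3 were at 12.9 and 13.9 CPM, and mice 1 and 4 at 26.8 and 29.9 CPM. *Mllt3* rose from 15.2 ± 1.78 to 25.2 ± 3.24 CPM, 166% of control, without overlap (log2 fold change 0.73, SE 0.14, adjusted p = 0.000496), although on library totals alone it was at 0.03 (adjusted p = 0.87). Their ratio of counts within a mouse went from 2.76 to 0.778, and lay on the log2 scale between 0.932 and 1.808 in control and between −1.127 and 0.375 in *Supt6*-KO mice (exact permutation test, p = 0.0159, adjusted 0.0245). *Eaf1* and *Eaf2*, which encode the ELL-associated factors, both rose, to 216% and 207% of control, without overlap (log2 fold changes 1.11, SE 0.18, and 1.05, SE 0.22, adjusted p = 0.000177 and 0.00123, edgeR). On library totals alone neither passed (0.46 and 0.36, adjusted p = 0.105 and 0.212). *Eaf1* was at 156 CPM in mouse 4 and between 81.7 and 102 CPM in the other *Supt6*-KO mice, and was higher by 0.87 without it, and *Eaf2* by 0.95. Their ratio within a mouse did not pass (35.5 in control and 35.9 in *Supt6*-KO skin, exact permutation test, p = 0.984), a log2 shift of 0.02, whereas with the length trend removed their log2 fold changes differed by 0.89. *Eaf2* was scarce, at 1.41 CPM in control and 2.91 CPM in *Supt6*-KO skin.

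CDK12 and CDK13, which pair with cyclin K and phosphorylate the polymerase tail during elongation, had lower message for all 3 genes, except that *Cdk13* turned sign with the length trend removed. *Cdk12* was at 23.2, 16.0, 22.0, 26.2 and 25.8 CPM in control and at 9.65, 11.8, 10.2 and 11.5 CPM in *Supt6*-KO mice. It fell to 47.6% (log2 fold change −1.07, SE 0.16, adjusted p = 0.000114, edgeR). *Ccnk* fell to 53.7% (−0.89, SE 0.21, adjusted p = 0.00243) and *Cdk13* to 68.3% (−0.55, SE 0.11, adjusted p = 0.000764), and none of the 3 overlapped. *Cdk13*, whose transcript of 12548 bases was the longest of the 39, was then at 0.64 (adjusted p = 0.000436, edgeR), while *Cdk12* and *Ccnk* stayed lower (−0.35 and −0.833, adjusted p = 0.0347 and 0.00315). The *Cdk12* to *Cdk13* ratio went from 0.507 to 0.357 with overlap (exact permutation test, p = 0.0317, adjusted 0.045), and passed in only 1 of the 5 fits that left out a control mouse.

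TFIIS restarts a polymerase that has slid back on its template, and of its 3 genes 1 rose, 1 fell and 1 did not pass. *Tcea1*, the broadly expressed form, was at 188, 228, 214, 163 and 142 CPM in control and at 461, 560, 513 and 398 CPM in *Supt6*-KO mice, and rose to 258% (log2 fold change 1.37, SE 0.17, adjusted p = 2.37e-05, edgeR). On library totals alone *Tcea1* was higher by 0.66 (adjusted p = 0.00114, edgeR). *Tcea3* was at 18.0, 20.5, 19.7, 15.7 and 15.7 CPM in control and at 3.97, 6.00, 5.90 and 4.96 CPM in *Supt6*-KO mice, and fell to 29.1% (−1.78, SE 0.17, adjusted p = 3.89e-06). *Tcea2* was at 1.73 CPM in control and 1.75 CPM in *Supt6*-KO skin and did not pass (0.01, SE 0.21, adjusted p = 0.955). The *Tcea1* to *Tcea3* ratio within a mouse went from 10.3 to 92.9, an 8.98-fold shift, and lay between 3.18 and 3.48 on the log2 scale in control and between 6.32 and 6.85 in *Supt6*-KO mice (exact permutation test, p = 0.0159, adjusted 0.0245). The ratios of *Tcea1* to *Tcea2* (107 to 274) and *Tcea2* to *Tcea3* (0.0966 to 0.339) also shifted without overlap, with the same p. *Tcea3* has a short transcript of 1251 bases, in a length class whose median change was upward, and with the length trend removed it was lower by 2.48.

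*Asf1a* and *Asf1b* encode chaperones that hand H3-H4 to HIRA for deposition outside replication and to CAF-1 during it. *Asf1a* was at 21.5, 27.1, 27.6, 20 and 18.3 CPM in control and at 59.5, 80.6, 77.2 and 62.1 CPM in *Supt6*-KO mice, and rose to 305% without overlap (log2 fold change 1.61, SE 0.16, adjusted p = 4.67e-06, edgeR). On library totals alone *Asf1a* was higher by 0.90 (adjusted p = 0.000139, edgeR). *Asf1a* shares 1551 annotated exon bases with *Mcm9* on the opposite strand. *Mcm9* averaged 509 counts in control and 246 in *Supt6*-KO mice. *Asf1b*, the form tied to dividing cells, was at 7.76, 8.71, 8.61, 7.11 and 10.9 CPM in control and at 12.7, 10.4, 16.3 and 44.8 CPM in *Supt6*-KO mice, and rose by 1.29 on the log2 scale (SE 0.37, adjusted p = 0.00858) with overlap, and did not pass on library totals alone (0.69, adjusted p = 0.178). The high value was that of mouse 4, the same mouse in which genes of proliferating cells summed to 1180 CPM, and without it the difference was 0.60 (adjusted p = 0.0113). The part of proliferating cells in this difference was not tested. *Hira*, the chaperone of histone H3.3, did not pass (0.10, SE 0.11, adjusted p = 0.42). The *Asf1a* to *Asf1b* ratio did not pass (2.64 in control, 3.92 in *Supt6*-KO skin, exact permutation test, p = 0.286, adjusted 0.324).

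**Figure D2:**
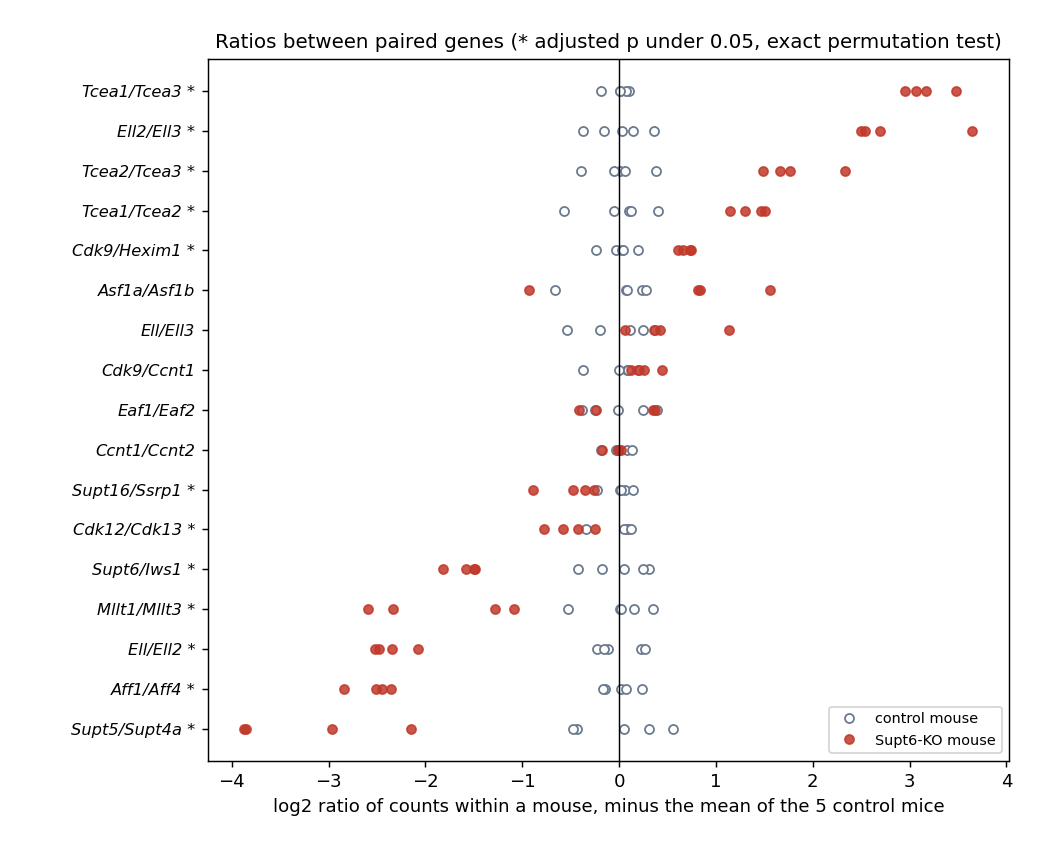
Log2 ratio of counts between the genes of each pair within a mouse, less the mean of the 5 control mice (x axis), for 17 pairs (y axis); open grey points are control and red points *Supt6*-KO mice, and asterisks mark an adjusted p under 0.05 (exact permutation test). *Supt5*/*Supt4a* lies farthest to the left and *Tcea1*/*Tcea3* among those farthest to the right, with no overlap, while *Eaf1*/*Eaf2* and *Ccnt1*/*Ccnt2* overlap around 0.

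Of the 17 ratios between paralogs or partners, 12 shifted past an adjusted p of 0.05 and 11 of these did not overlap. No share was computed for gene pairs in general, and with 71.0% of single genes past the threshold these counts are not a result about these pairs in particular. The 5 that did not pass were *Ell*/*Ell3*, *Eaf1*/*Eaf2*, *Ccnt1*/*Ccnt2*, *Asf1a*/*Asf1b* and *Cdk9*/*Ccnt1* (adjusted p = 0.0623). The log2 shift of *Cdk9*/*Ccnt1* was 0.26, and the difference between their log2 fold changes was −0.97 with the length trend removed. Leaving out a *Supt6*-KO mouse raises the smallest exact p to 0.0357, at which none of the 17 passed after adjustment. The pairs were compared in counts within a gene pair over mice, and no ratio is a ratio of molecules, since the transcripts differ in length. The ratios do not depend on library scaling but do depend on the length trend.

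Levels per length were read from the TPM values (transcript abundance corrected for length) that the authors deposited for the control mice. *Wdr61* and *Supt4a* were the most abundant elongation factor messages, at 197 ± 18.2 and 176 ± 16.0 TPM (SD, n = 5), and their ranges overlapped. *Tcea1* followed at 124 ± 9.30 TPM and *Ssrp1* at 80.7 ± 13.1 TPM, each apart from its neighbours above and below. *Paf1*, *Supt5*, *Nelfe* and *Nelfb* formed a group between 41.6 and 48.6 TPM, and *Hexim1*, *Ell3*, *Tcea3* and *Cdk9* one between 30.1 and 33.4 TPM. From *Leo1* at 22.8 TPM to *Ccnt2* at 8.60 TPM every gene overlapped its neighbour, *Supt6* at 21.1 ± 7.26 TPM (13.29 to 31.03) among them. *Iws1* was at 5.35 TPM, *Cdk12* at 5.04, *Mllt3* at 4.44 and *Tcea2* at 2.98 TPM, and *Eaf2* was the lowest at 1.58 ± 0.412 TPM. In control skin *Supt4a* message per length was thus above that of *Supt5*.

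**Figure D3:**
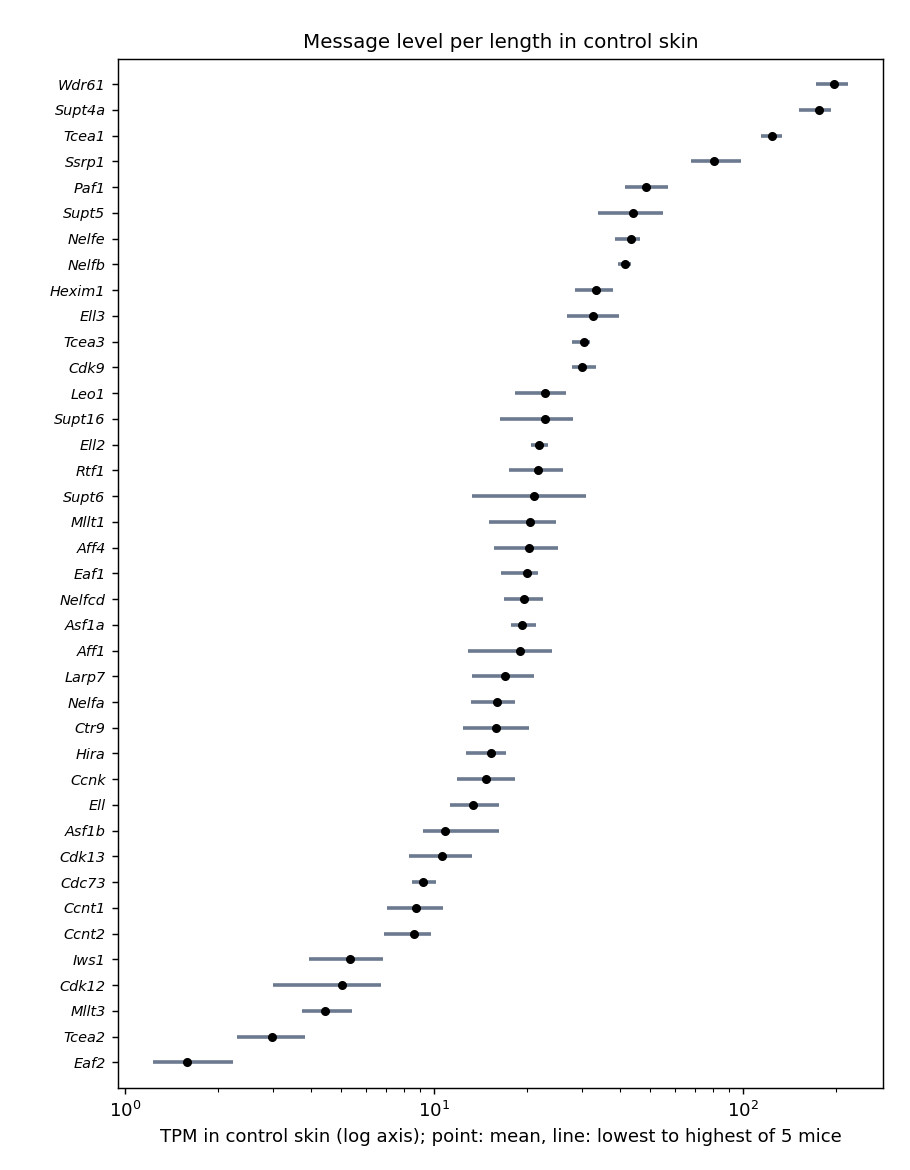
TPM of each elongation factor gene in control skin (log axis), with points for the mean and lines from the lowest to the highest of 5 mice. The order runs from *Wdr61* at 197 TPM to *Eaf2* at 1.58 TPM, and most neighbours between *Leo1* and *Ccnt2* overlap.

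Changes across the whole table followed transcript length. Over 16367 genes with a length, the median log2 fold change was 0.89 in the shortest of 5 equal length classes (up to 1675 bases), 0.25, −0.08 and −0.37 in the next 3, and −0.86 in the longest (from 4981 bases), and Spearman's rho across genes was −0.381. Among the 39 genes rho was −0.207, given as a description because these genes share their 9 libraries. The genes that rose at least 2-fold had a median length of 2527.5 bases and those that fell at least 2-fold of 4664 bases. *Ell2* and *Eaf1* (4382 and 4918 bases) rose against the trend and *Tcea3* fell against it, whereas *Supt4a*, *Supt6* and *Aff1* changed in its direction. With the trend removed, 16 of the 39 were higher and 12 lower, and the number at least 2-fold lower went from 7 to 2, *Aff1* and *Tcea3*, while *Supt6* was lower by 0.78 on the log2 scale. *Cdc73*, *Aff4*, *Ccnt1*, *Ccnt2*, *Iws1*, *Hira* and *Cdk13*, all but *Hira* with transcripts of 6738 bases or more, were then higher (0.52 to 1.57, adjusted p between 8e-06 and 0.000835, edgeR). Each length is that of the longest transcript of a gene in the basic GENCODE M21 annotation, and need not be the length behind the deposited TPM. *Cdk9* (1733 bases) and *Hexim1* (3495 bases) were at 58.68 and 64.85 CPM and at 30.1 and 33.4 TPM in control skin. Their deposited values thus reflect more similar lengths than these. Values with the length trend removed are uncertain for such genes. What lies behind the trend was not tested.

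The wider pathway was described with 68 further genes in 7 lists. Of these, 27 were higher (39.7%, against 34.1% of all genes), 26 lower (38.2%, against 36.8%) and 15 did not pass, so both shares lay near the background. With the length trend removed 35 were higher and 13 lower, and without *Supt6*-KO mouse 4, 26 were higher and 32 lower. Their median log2 fold change was 0.02 against −0.07 for all genes. Among the partners of the super elongation complex and of AF9, 7 of 10 were lower and 2 higher. *Kmt2a*, the methyltransferase whose fusions to AFF, ENL and AF9 partners cause leukaemia, fell from 25.4 to 6.02 CPM (log2 fold change −2.08, SE 0.24, adjusted p = 1.7e-05, edgeR), and *Mllt6* fell by 2.04. With the length trend removed they were at −0.69 and −1.20. The 2 that rose were *Zc3h8* (0.82) and *Ice2* (0.37, but −0.33 on library totals alone), both parts of the little elongation complex. *Zc3h8* was at 0.13 on library totals alone and at 0.39 with the length trend removed. *Ice1*, of the same complex and named after its value was seen, fell (−0.75, SE 0.14, adjusted p = 0.000436, edgeR). With the length trend removed *Ice1* was at 0.14. Among the regulators of 7SK and P-TEFb, 4 of 7 were lower and 1 higher. *Brd3*, a bromodomain protein, fell from 50.7 to 21.0 CPM (−1.27, SE 0.13, adjusted p = 6e-06, edgeR; −0.63 with the length trend removed), and *Mepce*, the capping enzyme of 7SK RNA, fell by 0.95. *Jmjd6* rose by 1.56. All 3 Elongin genes rose, *Elob* by 1.67, *Eloc* by 1.48 and *Eloa* by 0.74 (0.05 for *Eloa* on library totals alone, and 0.23 for *Elob* with the length trend removed), and their sum lay between 177 and 226 CPM in control and between 455 and 557 CPM in *Supt6*-KO mice. Elongin B and C also belong to ubiquitin ligases outside transcription.

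All 12 genes for kinases and phosphatases of the polymerase tail passed, against 71.0% of all genes, with 7 higher and 5 lower. *Rprd1b*, named after its value was seen, passed as lower with overlapping groups (−0.38, SE 0.15, adjusted p = 0.045, edgeR). With the length trend removed *Rprd1b* was at 0.10. *Ssu72* (1.78) and *Rprd1a* (1.72) rose most, and *Ctdspl* (−2.04) and *Ctdsp2* (−1.90), which encode small phosphatases of the tail, fell most. *Cdk7*, *Ccnh* and *Mnat1*, which form the TFIIH kinase and are named here after their values were seen, rose by 1.11, 1.09 and 1.29. On library totals alone these 3 were at 0.412, 0.405 and 0.579. In the H2B ubiquitylation list, the E2 enzymes *Ube2a* and *Ube2b* rose (1.74 and 1.47), and the E3 ligase genes *Rnf40* (−1.15, but −0.54 with the length trend removed) and *Rnf20* (−0.59, but −0.15 with the length trend removed, named after its value was seen) fell, along with the remodellers *Chd1* and *Chd2* (−0.70 each, but 0.21 and 0.31 with the length trend removed). In the TFIIF, TFIIS-like and termination list, 5 of 11 were higher and 2 lower. *Sub1*, the coactivator PC4, rose from 100.5 to 438.8 CPM (2.13, SE 0.19, adjusted p = 2e-06, edgeR) and *Gtf2f2* by 1.22, while *Phf3* and *Dido1* fell by 0.98 and 0.43 (−0.12 and 0.55 with the length trend removed). Of 18 other histone chaperones 7 were higher and 4 lower, with *Npm1* (1.58) and *Nap1l1* (1.27) the highest and *Cabin1* (−1.21, but −0.34 with the length trend removed) and *Atrx* (−0.89, but 0.20) the lowest. These signs are those of the TMM scaling, and on library totals alone 17 of the 68 were higher and 36 lower.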

How the data were processed

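RNA-seq was performed on skin of 5 control and 4 *Supt6*-KO mice, groups taken from the sample titles. The authors aligned paired-end reads to mm10 (the submitters' processing notes name HISAT and Bowtie2 2.3.4.3) and deposited RSEM 1.3.1 expected counts per gene and TPM. TPM was used for levels in control mice alone. Expected counts, 9% of them not exactly whole (no tolerance), were rounded. Of 17943 rows, 17850 matched a RefSeq gene. Genes with at least 10 counts in all were tested with edgeR 4.0.16 (TMM, quasi-likelihood, no covariates; R 4.3.3), against DESeq2 1.42.0 (which the authors used, in version 1.4.5 per the labels) and other settings. Within-mouse log2 ratios (0.5 counts added) were tested with two-sided exact permutation tests (scipy 1.17.1) over 17 pairs. On simulated counts, edgeR recovered 100% of 200 genes changed by 2 on the log2 scale, with 11 false calls among 16338 genes. Only these 200 genes were changed, up or down at random, whereas 71.0% of genes passed in the data. The simulation therefore cannot show how the scaling behaves here. The members, the 7 companion and 13 marker lists and the tests were chosen with earlier results of these data known. All 39 members were named, and full statistics were given for *Supt6*, for changes of at least 2-fold and for pairs that passed. Companion genes were named as the 2 highest and 2 lowest of each list among those that passed. The values of 1 companion gene are not reported here. Replicates are separate mice by their titles.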

Additional observations from a re-analysis of the deposited data

Results flagged for a closer look

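Each group of 4 or 5 mice was screened for a value far from the rest of its group for each of the 39 genes. Of 78 groups, 4 held such a value, and about 3.9 would be flagged by chance at 1 in 20. *Cdc73* in *Supt6*-KO mouse 4 was at 76.8 CPM against a group median of 47.5 CPM. *Ell* in control mouse 4 was at 27.2 CPM against 22.7 CPM. *Tcea2* in *Supt6*-KO mouse 4 was at 1.33 CPM against 1.87 CPM. *Hexim1* in *Supt6*-KO mouse 2 was at 48.3 CPM against 53.9 CPM.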

How the results depend on the processing

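Of the 26 calls, 14 (5 higher, 9 lower) kept direction and threshold in all 18 alternatives to the edgeR fit of all mice with TMM. These alternatives were another tool, scaling, filter or length correction, the replicate block, each mouse left out, and the 3 control mice with Y-linked counts alone, the last chosen after seeing the data. Library totals alone, which lower the median of all genes from −0.07 to −0.76, gave 5 members higher, 25 lower, 2 at least 2-fold higher and 14 at least 2-fold lower, and 17 companion genes higher. They turned the sign of *Iws1* (−0.61), *Cdc73* (−0.20), *Leo1* (−0.46), *Nelfb* (−0.50), *Nelfe* (−0.33), *Cdk9* (−0.31), *Ccnt1* (−0.57), *Ccnt2* (−0.52), *Tcea2* (−0.70) and *Hira* (−0.58). Removing the length trend gave 2 members at least 2-fold lower and 35 companion genes higher and 13 lower, and turned *Nelfe* (−0.09), *Cdk13* (0.64), *Ell* (0.025), *Aff4* (0.90) and *Tcea2* (−0.74). Testing against a 2-fold change gave 5 higher and 3 lower. Upper-quartile factors turned *Iws1* (−0.028) and *Tcea2* (−0.071), 10 counts in every mouse turned *Tcea2* (−0.038), and the 3 control mice alone turned *Tcea2* (−0.069). Without each mouse in turn, 5 to 8 members were at least 2-fold higher and 5 to 8 at least 2-fold lower, and *Iws1* ranged from −0.081 to 0.156, *Ssrp1* from −0.506 to 0.075, *Tcea2* from −0.070 to 0.125, the *Eaf1*/*Eaf2* log2 ratio from −0.101 to 0.159 and *Ccnt1*/*Ccnt2* from −0.089 to 0.003. Between 0 and 13 pairs passed without a mouse, and 0 with the 3 control mice, where the smallest exact p is 0.0571. With the replicate number as a block, 10 members were higher and 15 lower (*Cdc73* and *Nelfe* lost, *Paf1* gained) and *Supt6* was at −1.459. Deviations of log2 CPM from the group mean correlated at 0.01, 0.25, 0.33 and 0.11 between same-numbered mice. The mean was 0.175 for these and −0.038 for mice of different number. Not every mouse correlated best with its own number, and the numbers were not taken to pair the mice. Causes of these moves were not tested beyond what each setting changes. *Tcea2* and *Eaf2* were the scarcest, at under 3 CPM, and what depth limits was not tested.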
